A study of Mus musculus with 4 samples.

Results

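The genes described here are the 7 genes of MHC class II antigen presentation that were chosen by name, H2-Aa, H2-Ab1, H2-Eb1, H2-DMa, H2-DMb1, Cd74 and Ciita, out of 12596 genes in the count table. They were measured in colon monocytes and macrophages of male C57/Bl6N mice, 2 of which were given diesel exhaust particles (DEP) and 2 phosphate-buffered saline (PBS). Gavage was repeated on 5 days per week over about 6 months, with a dose of 12 µg of particles in a volume of 200 µL, and the control mice received the carrier alone. Cells of the colonic lamina propria that carried CD11b and either Ly6C or CD64 were sorted and sequenced in droplets, with 1 well per mouse in a single batch, so that a mouse and its well cannot be told apart. Every RNA molecule is counted once through its unique molecular identifier (UMI). The mice are called DEP 14, DEP 15, PBS 2 and PBS 3 by their numbers in the labels. Each gene was followed along the maturation of the cells, read from the summed share of C1qa, C1qb and C1qc among the UMIs of a cell, the complement genes that mark resident macrophages. Cells with a C1q share under 0.3%, of 0.3 to 1% and above 1% are called C1q low, C1q intermediate and C1q high.

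MHC class II molecules present peptides from swallowed material to CD4+ T cells. H2-Aa and H2-Ab1 encode the α and β chain of I-A, the class II molecule of C57BL/6 mice, and H2-Eb1 encodes the β chain of I-E, whose α chain gene is defective in this strain, so that its RNA is made without a complete I-E molecule. Cd74 encodes the invariant chain that escorts new class II molecules and blocks their groove, H2-DMa and H2-DMb1 encode the chaperone that exchanges the remnant of this chain for a peptide, and Ciita encodes the transactivator that switches the whole group on. In the gut, blood monocytes that have just entered the tissue carry Ly6C and little class II, and they gain class II and later C1q as they mature into resident macrophages.

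In mouse genome GRCm38 (GENCODE M21 annotation), 5 of the 7 protein-coding genes lie within 197 kb of chromosome 17. H2-DMa spans bases 34119541 to 34139101 on the plus strand and H2-DMb1 bases 34153072 to 34160230 on the same strand. H2-Ab1 spans bases 34257689 to 34269419 on the plus strand, H2-Aa bases 34282744 to 34287823 on the minus strand and H2-Eb1 bases 34305867 to 34316674 on the plus strand. Ciita lies apart, on chromosome 16 from base 10480059 to 10528418 on the plus strand. The promoters of class II genes share X and Y boxes, to which the RFX and NF-Y factors bind and on which the Ciita protein acts. The 120 bases before the RefSeq start of 2 members, H2-Aa and H2-Eb1, are shown as examples. The sequences are those of RefSeq on GRCm38.p6, from 5′ to 3′ on the strand of the gene, and capitals mark matches to the Y box core (TGATTGG), to the X box core (AACNGATG) and to the cAMP response element (TGACGTCA). Both lie directly upstream of the annotated gene, at chr17:34287824-34287943 for H2-Aa and at chr17:34305747-34305866 for H2-Eb1, the latter within an intron of the antisense transcript Gm20513.
H2-Aa: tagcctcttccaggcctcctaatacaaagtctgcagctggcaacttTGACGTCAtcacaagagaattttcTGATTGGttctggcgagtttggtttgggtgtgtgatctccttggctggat
H2-Eb1: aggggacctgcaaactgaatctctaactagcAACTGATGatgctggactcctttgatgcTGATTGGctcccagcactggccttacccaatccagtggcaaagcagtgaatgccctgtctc

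These motifs were chosen after the promoters were seen, were searched on both strands, and a match is a description of letters only. The Y box core was found in 3 of the 4 members with a promoter window (250 bases before to 50 after the start), against 7.82% of 32851 windows of all genes. The X box core was found in 2.32% and the cAMP response element in 1.79% of all windows. Among the members, the X box core was found only for H2-Eb1 and H2-DMb1 and the cAMP response element only for H2-Aa. H2-Ab1, Cd74 and Ciita had no window and were not searched. The third member with a Y box core was H2-DMb1, whose window lies partly within its annotated first exon, no match was found in the windows of H2-DMa, and a Y box core stood in 7 of 23 other genes of the pathway with a window.

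Of 943 cells, 632 were retained and 311 were left out because at least 3 markers of a single other cell class were found in them. Of these 311 cells, 272 were left out only through immunoglobulin genes, namely 38.1% and 36.5% of all cells of DEP 14 and 15 and 13.5% and 23.2% of those of PBS 2 and 3. Those 272 cells had a median class II share of 13.8% of UMIs, close to that of C1q high cells. Results that change without immunoglobulin genes as markers, which retained 904 cells, are therefore given with that value. The retained cells held 419178 and 606762 UMIs in DEP 14 and 15 and 584292 and 732448 in PBS 2 and 3, and 1 cell barcode occurred in more than 1 mouse. All 12 macrophage and monocyte markers were found in each mouse, at 36904 to 39025 UMIs per 1000000, a plain share of the total count as for all marker values given in this unit. C1q low cells were 25.9% and 30.6% of the cells in the DEP mice and 11.4% and 15.2% in the PBS mice, in cell numbers 28, 59, 19 and 25. The number of C1q intermediate cells was 12, 13, 10 and 15, and C1q high cells were 63.0% and 62.7% against 82.6% and 75.6%. Without immunoglobulin genes as markers C1q low cells were 16.7% and 21.3% in the DEP mice and 9.79% and 12.1% in the PBS mice, and C1q high cells 76.1% and 72.4% against 85.1% and 80%.

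All 7 genes rose from C1q low to C1q high cells. The UMIs of the cells were summed per mouse and class into 12 libraries, and the classes were compared within the mice by edgeR's quasi-likelihood test with Benjamini-Hochberg adjustment over all 5082 genes tested, C1q genes left out. Of these genes, 17.2% passed an adjusted p of 0.05, and 10.1% passed as higher in C1q high cells. All 7 were higher in C1q high cells in each of 4 mice, as were 21.6% of all genes, and for 6 of 7, all but Ciita, the lowest C1q high library was above the highest C1q low library, as for 13.2% of all genes. The levels of the genes by class are counts per 1000000 UMIs (CPM) on the TMM scale of this fit.

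H2-Ab1 stood at 8239.9 CPM in DEP 14, 6464 in DEP 15, 4365 in PBS 2 and 3255 in PBS 3 in C1q low cells, and at 34103, 32871, 31768 and 30746 CPM in C1q high cells of the same mice. The classes did not overlap, and the intermediate cells lay between them at 12497 to 19067 CPM. Its level rose by 2.58 on the log2 scale from C1q low to C1q high (SE 0.183, adjusted p = 7.97e-43).

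H2-Aa, the partner chain, stood at 6123, 4894, 3435 and 2578 CPM in C1q low cells of DEP 14, DEP 15, PBS 2 and PBS 3, and between 23476 and 24742 CPM in C1q high cells. The log2 fold change was 2.54 (SE 0.182, adjusted p = 6.82e-42), within the standard error of that of H2-Ab1.

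H2-Eb1 rose from 4244, 3199, 2344 and 1489.8 CPM in C1q low cells to between 19519.8 and 19952 CPM in C1q high cells, in the same order of mice. With 2.84 (SE 0.184, adjusted p = 6.96e-51) it had the highest log2 fold change of the 7 genes, although its 95% interval of 2.48 to 3.20 overlapped those of H2-Aa and H2-Ab1.

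Cd74 stood at 25389, 19518, 13883 and 10933 CPM in C1q low cells and at 93021, 95131, 88732 and 86342 CPM in C1q high cells. Every C1q high library was above every C1q low and intermediate library, and the log2 fold change was 2.42 (SE 0.185, adjusted p = 7.30e-37).

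The genes of the peptide exchange chaperone rose less. H2-DMa went from 929, 841, 608 and 607 CPM in C1q low cells to between 1799 and 2055 CPM in C1q high cells, with a log2 fold change of 1.38 and a 95% interval of 1.02 to 1.74. H2-DMb1 went from 1069, 657, 429 and 642 CPM to between 1656 and 1741 CPM, with a log2 fold change of 1.28 and an interval of 0.92 to 1.64. Neither interval overlapped that of H2-Aa, H2-Ab1, H2-Eb1 or Cd74 (lowest bound 2.06), and the difference between genes was not tested further. Near the 3′ end, where this assay reads, 25.3% of the 31-base words of H2-DMb1 also occurred in its near copy H2-DMb2, so that reads of these 2 genes could not always be told apart.

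Ciita was counted in few molecules. In C1q low cells it had 12, 9, 2 and 0 UMIs in DEP 14, DEP 15, PBS 2 and PBS 3, and in C1q high cells 31, 52, 64 and 60 UMIs, which is 132, 158, 158 and 124 CPM. The log2 fold change was 1.32 (SE 0.339, adjusted p = 0.00113), and it was lost without PBS 3, whose C1q low cells held no Ciita UMI (0.93, adjusted p = 0.0915). For that library a count of 0 allows up to 34.4 UMIs per 1000000. DEP 14 was the mouse with the least change, at 129.6 CPM in C1q low and 132 CPM in C1q high cells.

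**Figure D1:**
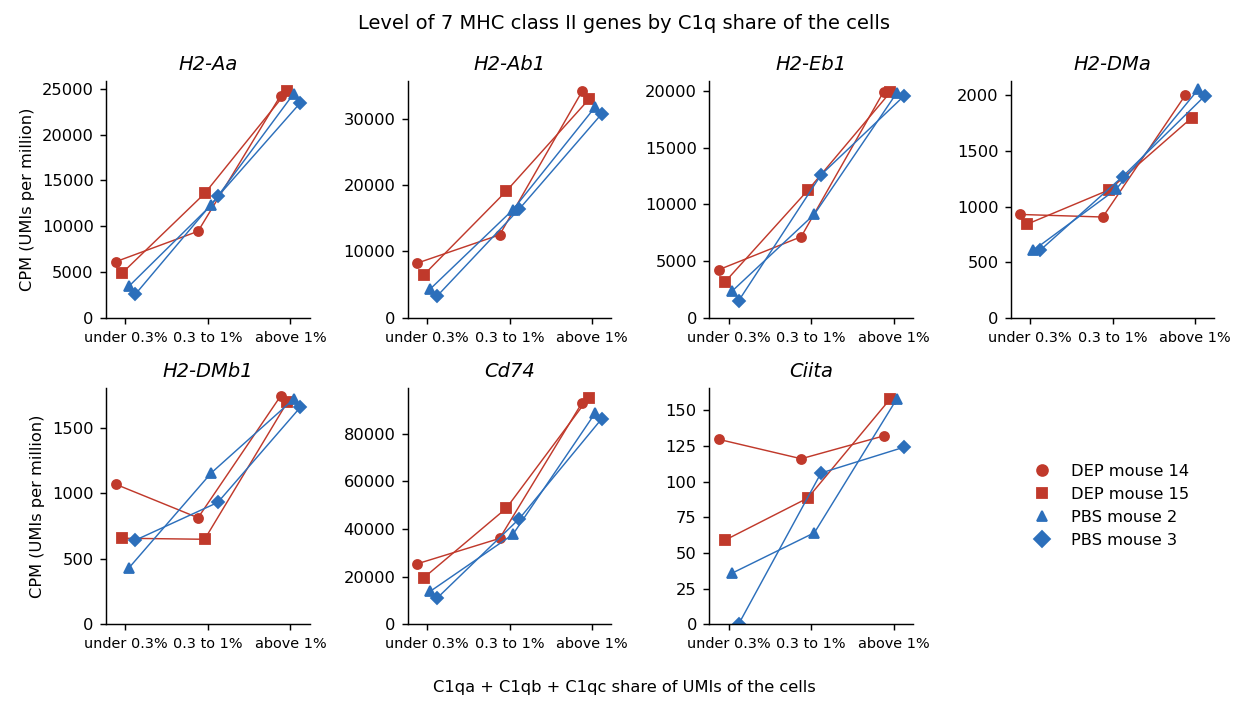
Counts per 1000000 UMIs (linear axes from 0) of the 7 genes in C1q low (under 0.3%), intermediate (0.3 to 1%) and C1q high (above 1%) cells, 1 point per mouse and class with lines joining the classes of a mouse, red for DEP and blue for PBS. H2-Aa, H2-Ab1, H2-Eb1 and Cd74 climb in steps in all 4 mice, H2-DMa and H2-DMb1 are highest in C1q high cells of each mouse, and Ciita of DEP 14 stays near 130 CPM (129.6 and 132 CPM at both ends).

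From C1q low to intermediate cells, H2-Aa (log2 fold change 1.55), H2-Ab1 (1.57), H2-Eb1 (1.87) and Cd74 (1.30) rose, so that 4 of 7 members passed where 6.28% of all genes did and 2.24% passed as higher. H2-DMa (0.57, adjusted p = 0.0824), H2-DMb1 (0.33, adjusted p = 0.461) and Ciita (0.74, adjusted p = 0.499) did not pass, but H2-DMa passed in 8 of 14 alternatives (log2 fold change up to 0.96) and H2-DMb1 in 2. From intermediate to C1q high cells, 6 of 7 passed as higher, with log2 fold changes from 0.81 for H2-DMa to 1.12 for Cd74, against 3.54% of all genes (2.93% as higher). Ciita had a log2 fold change of 0.58 there (adjusted p = 0.554). The intermediate libraries were small (28229 to 47522 UMIs) and their scaling was uncertain. The median of all genes was -0.27 for intermediate against C1q low and 0.36 for C1q high against intermediate cells, and -0.02 and 0.13 with the size factors of DESeq2. With those factors 5 of 7 genes passed at each step, whereas the shares of all genes given above are those of the TMM scaling. Over all 14 alternatives, 132 to 434 of all genes passed at the first step and 69 to 267 at the second.

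Within single cells the class II share, the sum of the 7 genes in percent of all UMIs, was spread widely in C1q low cells. Of 131 C1q low cells, 80 (61.1%) had a share under 2%, 39 (29.8%) had 5% or more, and 12 lay between. Below 2% the shares were graded as well. All 50 intermediate cells were above 2%, and 45 (90%) had 5% or more. Of 451 C1q high cells, 434 (96.2%) had 5% or more and 7 (1.55%) were under 2%. The median rose from 0.970% over 7.99% to 13.4%, with quartiles of 0.347% and 5.89% in C1q low and of 11.1% and 15.7% in C1q high cells. The 2% and 5% limits were chosen after the shares were seen. A cell type that should lack class II sets the background, and 10 left-out cells with markers of T cells, NK or innate lymphoid cells or stroma had a median share of 0.265% (highest 13.1%, median 2646 UMIs). The C1q low cells under 2% reached down to this range, but the median C1q low cell, at 0.970%, lay above the background median.

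Among C1q low cells, those with 5% or more class II carried less Ly6c2, the monocyte antigen gene, than those under 2% (269 against 884 UMIs per 1000000), with 3492 against 4815 for the monocyte gene Plac8. Ccr2, the chemokine receptor of incoming monocytes, was at 919 against 628 UMIs per 1000000. Of the dendritic cell markers, Cd209a had 42 UMIs in 6 of the C1q low cells with 5% or more and 10 UMIs in 3 of those under 2%, Ccr7 had 16 UMIs in 5 cells against 0, Flt3 had 0 UMIs against 3, and Clec9a was at 0 in both. The B cell genes Cd79a and Ms4a1 were at 0 both in cells of 5% or more and in those under 2%. The immunoglobulin gene Igkc was at 286 against 273 UMIs per 1000000. Cells with at least 3 B or plasma cell markers had been left out beforehand. Depth did not separate cells of 5% or more from those under 2% over all mice, with a median of 3110 against 2997 UMIs. Across the cells of a class, the rank correlation of the C1q share with the class II share was 0.23 in 131 C1q low, 0.27 in 50 intermediate and 0.32 in 451 C1q high cells. Both shares come from the same UMIs of a cell, and in C1q high cells the class II share also ran with depth (0.27).

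**Figure D2:**
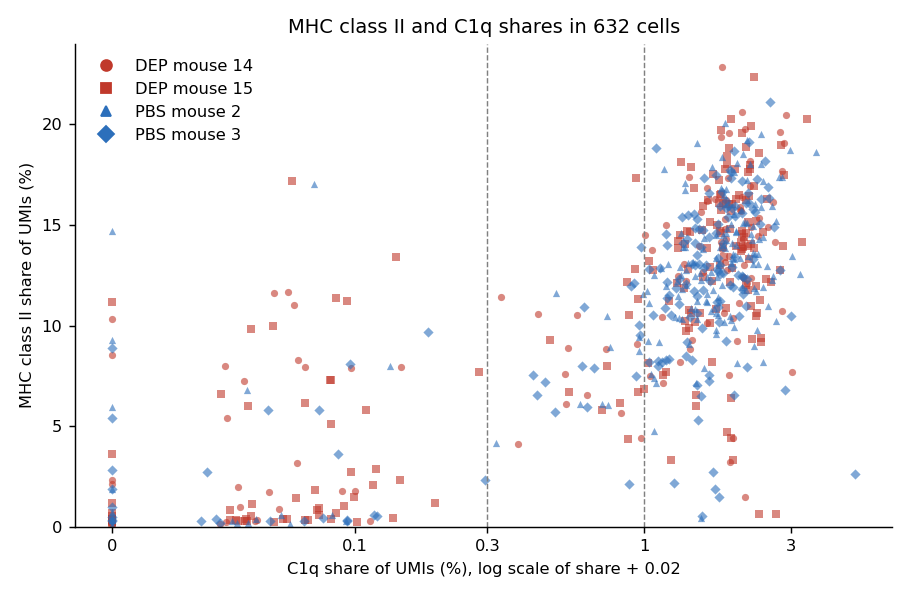
Class II share against C1q share of UMIs in each of the 632 retained cells, 1 point per cell, red for DEP and blue for PBS, with dashed lines at 0.3% and 1%. C1q low cells form a dense band near 0 with a scatter of cells above 5% (39 of 131), while nearly all C1q high cells (434 of 451) are at 5% or more.

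The proportions of the genes within the class II sum shifted between the classes, little for H2-Aa, H2-Ab1 and Cd74 and more for H2-Eb1 and the chaperone genes. H2-Aa made up 13.2% to 13.7% of the class II UMIs in C1q low and 13.8% to 14.5% in C1q high cells, H2-Ab1 16.7% to 18.1% and 18.6% to 19.5%, and Cd74 54.8% to 56.1% and 52.6% to 54.0%. H2-Eb1 moved up from 7.64% to 9.34% in C1q low to 11.3% to 11.9% in C1q high cells. H2-DMa moved down from 2.01% to 3.11% to 1.02% to 1.22%, and H2-DMb1 from 1.71% to 3.29% to 0.960% to 1.02%. The C1q low and C1q high libraries did not overlap for any of these 6 genes. Over single C1q high cells thinned to 1000 UMIs and centred on their mouse, Pearson correlations between H2-Aa, H2-Ab1, H2-Eb1 and Cd74 were 0.68 to 0.78 (n = 451 cells). Those of Ciita with the other members were -0.01 to 0.07, and thinned Ciita counts were at or near 0 in most cells, so that a weak correlation there says little.

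The second question was whether DEP changed class II expression. Over all retained cells no member passed between DEP and PBS exposed mice. On the scale of this comparison H2-Ab1 stood at 22487 CPM in DEP 14, 21064 in DEP 15, 24752 in PBS 2 and 22807 in PBS 3, and Cd74 at 62191, 60796, 68869.8 and 64156 CPM. For 5 of 7 members both values after DEP lay below both after PBS, which held for 20.2% of all genes. The log2 fold changes of DEP over PBS ran from -0.23 (H2-Eb1 and H2-DMa) to 0.05 (Ciita), with adjusted p from 0.564 to 0.973 in edgeR's quasi-likelihood test. Only H2-Eb1 had an unadjusted p under 0.05, as had 8.04% of all genes, and DESeq2 gave none. Of all 5085 genes, 0.177% passed.

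This comparison mixes the classes, of which the DEP mice held different shares. The same number of cells of each class was also taken from every mouse in a single random draw (19 C1q low, 10 intermediate and 68 C1q high cells). H2-Aa, H2-Ab1, H2-Eb1, H2-DMb1 and Cd74 then turned to log2 fold changes between 0.06 and 0.16, again without passing. Without immunoglobulin genes as markers, H2-Ab1 was at 0.00 and Cd74 at 0.05. The sign over all cells thus differed between these selections of cells, for small values that never passed, and the reason was not tested.

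Within C1q high cells no member passed between DEP and PBS exposed mice. On the scale of this comparison H2-Eb1 stood at 16511 CPM in DEP 14, 16599 in DEP 15, 16639.9 in PBS 2 and 16289 in PBS 3, and overlapped. H2-Ab1 stood at 28222, 27434, 26626 and 25657 CPM and Cd74 at 76979, 79396, 74370.2 and 72052 CPM in the same order, both higher in each DEP exposed mouse, and H2-DMa was lower in each. That makes 3 of 7 members without overlap, where 34.8% of all genes had none. The log2 fold changes ran from -0.10 for H2-DMa to 0.09 for H2-Ab1 and Cd74. The 95% interval was -0.17 to 0.22 for H2-Aa, -0.10 to 0.28 for H2-Ab1, -0.19 to 0.21 for H2-Eb1 and -0.07 to 0.26 for Cd74, and wider for Ciita (-0.46 to 0.56). No member had an unadjusted p under 0.05 in edgeR or DESeq2, where 0.0384% of 5214 genes passed the adjusted threshold in edgeR. The summed class II share was 14.2% and 14.1% in the DEP mice and 13.6% and 13.2% in the PBS mice. In the intermediate cells the intervals were too wide to tell much, with H2-Ab1 at -0.09 (95% interval -0.85 to 0.66). No member passed the adjusted threshold in either tool, where 0.2% of 4507 genes did in edgeR. None had an unadjusted p under 0.05 in either tool.

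In C1q low cells H2-Ab1 and Cd74 were higher in DEP than in PBS exposed mice. On the scale of this comparison H2-Ab1 stood at 8902 and 6427 CPM in DEP 14 and 15 and at 4418 and 3398 CPM in PBS 2 and 3. Cd74 stood at 27429 and 19404 against 14049 and 11415 CPM. Both genes were highest in DEP 14 and lowest in PBS 3, without overlap. The log2 fold change was 0.97 for H2-Ab1 (SE 0.199) and 0.88 for Cd74 (SE 0.181), each with an adjusted p of 0.0241 in edgeR's quasi-likelihood test. The percentage of all 4586 genes that passed was 0.174%, or 8 genes, so that 2 of those 8 were class II genes.

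The other members had log2 fold changes above 0 without passing. H2-Aa was at 6615 and 4866 against 3476 and 2692 CPM (log2 fold change 0.90, adjusted p = 0.0584). H2-Eb1 was at 4585 and 3181 against 2372 and 1555 CPM (0.99, adjusted p = 0.0584). H2-DMa (0.54, adjusted p = 0.798) and H2-DMb1 (0.65, adjusted p = 0.737) had lower values, and H2-DMb1 overlapped between the groups. In all, 6 of 7 members were higher in each DEP exposed than in each PBS exposed mouse, as were 20.1% of all genes tested. Ciita had 21 UMIs in the DEP mice and 2 in the PBS mice, a ratio per UMI of 5.79 with a 95% counting interval of 1.42 to 51.0, and its log2 fold change of 2.54 did not pass (adjusted p = 0.529). All 7 members had an unadjusted p under 0.05, which 6.04% of all genes had.

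**Figure D3:**
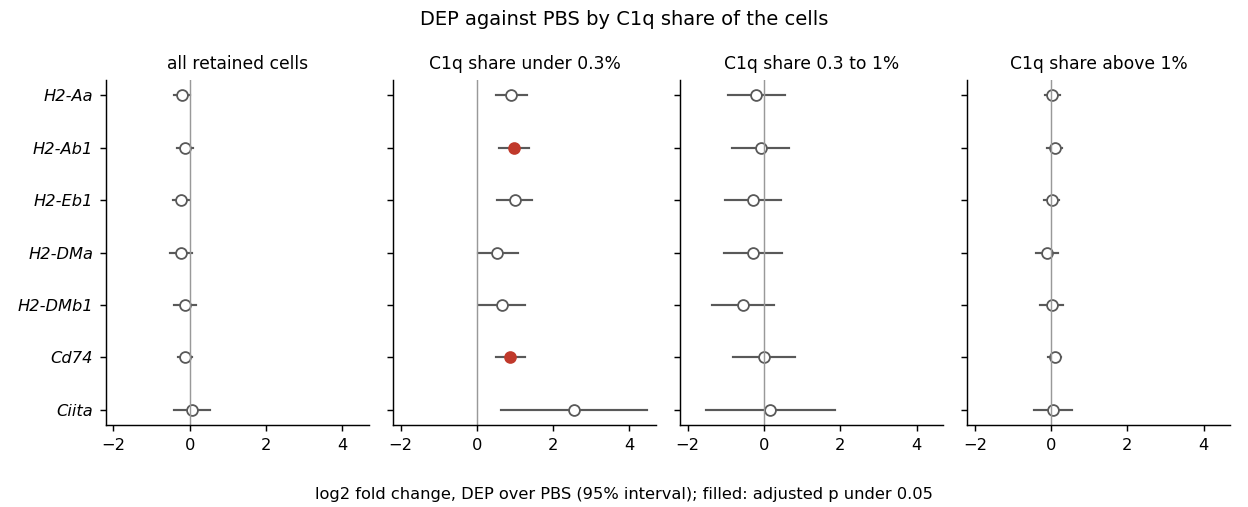
Log2 fold change of DEP over PBS exposed mice (2 against 2) for the 7 genes with 95% intervals from edgeR, over all retained cells and in each C1q class, with filled points for an adjusted p under 0.05. H2-Ab1 (0.97) and Cd74 (0.88) pass in C1q low cells, and in C1q high cells all 7 points lie between -0.10 and 0.09.

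This call was not firm. It was lost by DESeq2, by other limits of the classes, by 2 in place of 3 markers for leaving cells out, by keeping all cells, without DEP 14 (H2-Ab1 0.69, adjusted p = 0.456) and without PBS 3 (0.75, adjusted p = 0.110). Over 14 alternatives H2-Ab1 passed in 5 and Cd74 in 5, while the log2 fold change stayed between 0.37 and 1.22 for H2-Ab1 and between 0.36 and 1.14 for Cd74. Without immunoglobulin genes as markers the values were 0.85 (adjusted p = 3.72e-04) and 0.78 (adjusted p = 1.22e-04), and H2-Aa and H2-Eb1 passed as well.

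**Figure D4:**
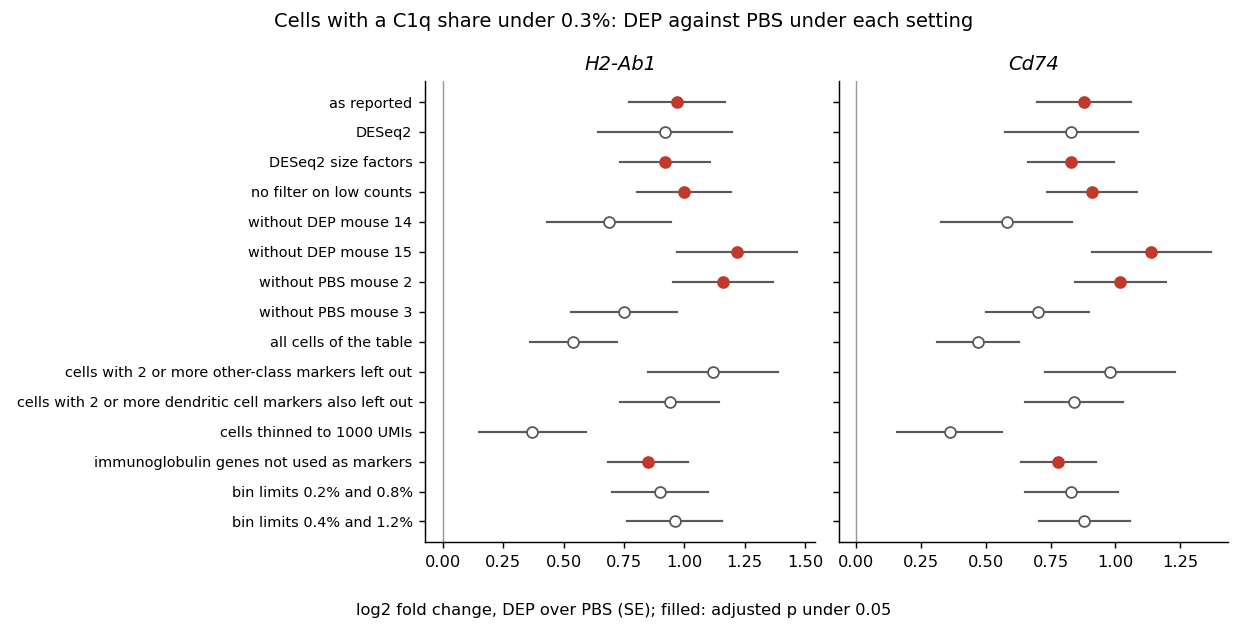
Log2 fold change of DEP over PBS exposed mice in C1q low cells for H2-Ab1 and Cd74 with its standard error, as reported and under 14 alternatives, with filled points for an adjusted p under 0.05. All points are above 0, and the lowest are those of cells thinned to 1000 UMIs (0.37 and 0.36).

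The smallest values came when every cell was thinned to 1000 UMIs and so given the same weight, with 0.37 for H2-Ab1 and 0.36 for Cd74 (adjusted p = 0.971 and 0.961). H2-Aa then had 0.17, H2-Eb1 0.13, H2-DMa 0.26 and H2-DMb1 -0.09 (adjusted p = 0.981 each). Cells with 5% or more class II were 42.9% and 25.4% of the C1q low cells in DEP 14 and 15 and 31.6% and 24.0% in PBS 2 and 3, and their exact 95% binomial intervals, 24.5% to 62.8%, 15% to 38.4%, 12.6% to 56.6% and 9.36% to 45.1%, overlapped. These intervals cover counting error only. The share of UMIs that these cells held was 44.6% and 29.2% in the DEP mice and 24.3% and 15.4% in the PBS mice. In the PBS mice, with only 6 such cells each, their median was 1908 and 1513 UMIs against 3286 and 4127 in the other C1q low cells. In the DEP mice, with 12 and 15 such cells, it was 3354 and 3203 against 3234 and 2786. The summed class II share of the C1q low cells was 4.66% and 3.31% in the DEP mice and 2.6% and 1.95% in the PBS mice. After thinning it was 4.35% and 3.02% against 3.54% and 2.45%, so that DEP 15 lay below PBS 2 and the groups overlapped. The median C1q low cell had 2.24% and 0.810% in the DEP mice and 0.573% and 0.590% in the PBS mice, highest in DEP 14. The lower quartile was 0.757% in DEP 14 and 0.360%, 0.281% and 0.341% in DEP 15, PBS 2 and PBS 3. The upper quartile of DEP 14 was 7.96%, so that its shares were graded. With 28 C1q low cells in DEP 14, a few cells can still move its median. Of the DEP 14 cells 46.4% were under 2% (exact 95% binomial interval 27.5% to 66.1%), which overlapped the intervals of the other mice.

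**Figure D5:**
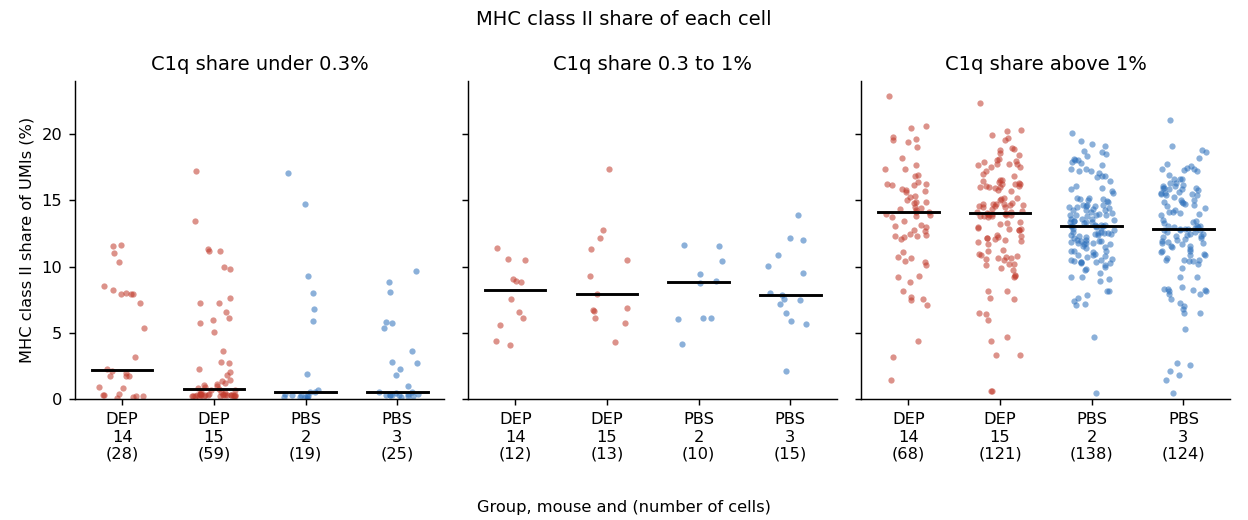
Class II share of UMIs of each retained cell by C1q class and mouse, 1 point per cell (spread sideways at random), bars at the median, and the number of cells in brackets. In C1q low cells the median is 2.24% in DEP 14 and between 0.573% and 0.810% in the other mice, and in C1q high cells all 4 mice have their median between 12.8% and 14.1%.

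Markers of other cells also differed among the C1q low libraries. The 4 dendritic cell markers in the table summed to 119.9 and 262 UMIs per 1000000 in the DEP mice and to 0 and 207 in the PBS mice, with Clec9a at 0 in the C1q low cells with class II shares of 5% or more. Leaving out cells with 2 or more of them gave 0.94 for H2-Ab1 (adjusted p = 0.0603) and 0.84 for Cd74 (adjusted p = 0.0646). The 16 B or plasma cell markers summed to 512 and 848 UMIs per 1000000 in the DEP mice and to 315 and 344 in the PBS mice, and the 11 of them that are not immunoglobulin or J chain genes to 32.7 and 6.10 against 37.1 and 11.5. The 12 macrophage and monocyte markers summed to 39924 and 43085 against 54788 and 55621 UMIs per 1000000. This did not hold for each marker. Fcgr1 was higher in both DEP mice (194 and 177 against 125 and 115 CPM) on few molecules. Adgre1 was lower (140.4 and 151 against 215 and 218 CPM). Ly6c2 (961 and 624 against 608 and 894 CPM) and Ccr2 overlapped. The part of these in the class II difference was not tested. In summed counts, more class II RNA per cell and more cells with class II cannot be told apart.

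Whether the DEP difference of C1q low cells differed from that of C1q high cells was tested as an interaction in the 12 libraries. No member passed, where 0.177% of 5082 genes did. The log2 interaction (DEP over PBS in C1q high minus that in C1q low cells) was -0.96 for H2-Eb1 (SE 0.282, adjusted p = 0.154), -0.86 for H2-Ab1 (SE 0.277, adjusted p = 0.285), -0.85 for H2-Aa (SE 0.277, adjusted p = 0.289) and -0.76 for Cd74 (SE 0.279, adjusted p = 0.529). It was below 0 for all 7 members, 6 of which had an unadjusted p under 0.05 in edgeR (4.23% of all genes) and none in DESeq2. A difference of the DEP response between C1q low and C1q high cells was therefore not shown.

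Other genes of the pathway were taken from a list of 37, of which 32 were in the table, and 4 groups of it are described. Between C1q low and C1q high cells, 2 of 3 other class II genes tested were higher in C1q high cells in edgeR, while 1 of 3 passed in DESeq2. Those of edgeR were H2-Ob, a chain of the H2-O molecule that restrains the exchange chaperone (log2 fold change 2.07, adjusted p = 0.00711), and H2-DMb2 (1.38, adjusted p = 4.00e-06). H2-Ob rested on few molecules, with 3, 1, 1 and 0 UMIs in C1q low cells of DEP 14, DEP 15, PBS 2 and PBS 3. H2-Oa, the partner of H2-Ob, had 1.58 (adjusted p = 0.0596).

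Of 8 antigen processing genes, 6 were higher in C1q high cells and none was lower. Lgmn, the endopeptidase that starts to cut antigens and the invariant chain, rose from 518, 539, 465 and 378 CPM in C1q low cells of DEP 14, DEP 15, PBS 2 and PBS 3 to between 2590.4 and 3174 CPM (log2 fold change 2.56, adjusted p = 2.80e-37). It was also the one processing gene that passed between C1q low and intermediate cells (1.68, adjusted p = 6.96e-13). Ctss, which makes the last cut in the invariant chain, rose from between 2819 and 3402 to between 5496 and 6859 CPM (0.92, adjusted p = 1.30e-06). Ctsl (1.53), Ctsb (1.37), Ctsh (0.81) and Ctsz (0.67), further lysosomal proteases, passed as well, while Ctsd had 0.59 (adjusted p = 0.0691) and Sppl2a, which degrades the last stub of the invariant chain, 0.58 (adjusted p = 0.471).

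Of 3 genes of the class II transcription machinery that were tested none passed, and the 2 with the largest values were Nfyb (-1.14, adjusted p = 0.174) and Nfyc (-0.60, adjusted p = 0.566), subunits of NF-Y. At an unadjusted p under 0.05 there was 1 of 3 (Nfyb). Of 5 turnover and costimulation genes, Cd83, which protects class II from degradation (1.44, adjusted p = 4.56e-13), and the costimulatory ligand gene Cd86 (1.2, adjusted p = 1.28e-04) were higher in C1q high cells. The median log2 fold change of the 7 members was 2.42 and that of all genes 0.10, and those of the lists were 1.58 for other class II genes, 0.86 for antigen processing, -0.60 for the transcription machinery and 0.15 for turnover and costimulation.

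Between DEP and PBS exposed mice no gene of these 4 lists passed in edgeR or DESeq2, over all cells or in any class, and in edgeR 1 had an unadjusted p under 0.05 over all cells, 2 in C1q low, 1 in intermediate and 0 in C1q high cells. Over all cells the largest values in antigen processing were those of Lgmn (-0.37, adjusted p = 0.473) and Ctsl (-0.29, adjusted p = 0.754). In C1q low cells they were those of Ctsl (1.13, adjusted p = 0.708) and Sppl2a (0.74, adjusted p = 0.965). Among turnover and costimulation genes of C1q low cells they were Cd86 (1.23, adjusted p = 0.709) and Cd80 (0.77, adjusted p = 0.972). The median of the antigen processing genes in C1q low cells was 0.30, of the 7 class II members 0.90 and of all genes 0.06.

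The genes most like the class II genes were looked for among 1657 genes found in at least 20% of cells. Over the 12 libraries, the target was the sum of the log2 CPM values of the single class II genes. Ciita, with few UMIs, thus had the same weight as Cd74, unlike in the class II share. The leading genes over libraries were Herpud1, Cxcl16, Cd72, Malat1 and Mgl2, with Pearson correlations of 0.95 to 0.97. The 12 libraries share 4 mice, and the correlation follows the C1q classes. Over 451 C1q high cells thinned to 1000 UMIs, the target was the summed class II UMIs of a cell. The order there was led by the protease gene Ctss (0.37), the lipid carrier gene Apoe (0.32), Fth1 (0.27), Psap (0.25) and Rgs1 (0.25). It differed from that over libraries, but so did the target, and the part of the target in this was not tested. The genes that led over libraries had correlations of -0.10 to 0.18 over the C1q high cells. The lowest correlations there were those of the chemokine gene Pf4 (-0.39) and of F13a1 (-0.28), chosen after their values were seen. All of these are weak to moderate in sparse counts.

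Nearly every C1q high cell held H2-Ab1. After thinning to 1000 UMIs, 0 of 68 cells lacked an H2-Ab1 UMI in DEP 14, which allows a share of up to 4.41%, and 1 of 121 (0.826%) in DEP 15. In PBS 2 it was 0 of 138, which allows up to 2.17%, and in PBS 3 2 of 124 (1.61%). The difference between DEP and PBS exposed mice of -0.393 points was within the spread between mice (exact two-sided permutation test, p = 1, in a design of 2 against 2 mice whose 6 arrangements cannot give a p under 0.05). Without thinning no C1q high cell of any mouse lacked it. Detection alone says little for this gene, since 80.0% of the 10 T cell, lymphoid or stromal cells held a thinned H2-Ab1 UMI too (90% unthinned, median 2646 UMIs). By detection alone, C1q low cells were at or below this value, with 78.6% and 76.3% in the DEP mice and 63.2% and 80.0% in the PBS mice (median 2651 to 3893 UMIs). The value rests on only 10 cells, whose class II share reached 13.1%. By amount, 29.8% of C1q low cells had a class II share of 5% or more. H2-DMa was found in 40.0% to 42.9% of thinned C1q low and 73.5% to 81.2% of thinned C1q high cells, against 30.0% of these 10 cells.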

How the data were processed

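Colon monocytes and macrophages of 4 mice, 2 per group by the labels, were analysed. The authors aligned reads with Cell Ranger and STAR 2.6.1a to mm10, filtered the cells and deposited raw UMI counts per gene and cell, without normalization. The number in each cell name gave its mouse, and 0 columns of other samples were found. Genes were named by Ensembl ID (12576 of 12596 matched). Counts were summed per mouse and C1q class (TMM scaling; genes with over 1 CPM in 2 libraries and a UMI in 5% of cells) and tested with edgeR 4.0.16 in R 4.3.3. DESeq2 1.42.0 was an alternative. Python 3.11.15 with numpy 2.4.6 served for thinning (1000 UMIs per cell), intervals (95%) and exact permutation over mice. No doublet caller was run. The summed libraries held 28229 to 597800 UMIs. With 2 mice per group, the error rests on spread shared across genes. The tests were tried on simulated data. The text names the 7 members and listed pathway genes that passed (otherwise the 2 largest changes), with 5 genes most like them per measure. One group of pathway genes is not reported here. Members and lists were chosen with earlier results of these data known.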

Additional observations from a re-analysis of the deposited data

How the results depend on the processing

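Alternatives were DESeq2, its size factors in edgeR, no filter on low counts, other rules for leaving out cells, thinning to 1000 UMIs, other C1q limits (0.2% and 0.8%, 0.4% and 1.2%), equal cell numbers per class (over all cells only) and leaving out each mouse. Not using immunoglobulin genes as markers was added after seeing the data. The rise from C1q low to C1q high cells kept its direction in 98 of 98 values and passed in 97, the exception being Ciita without PBS 3. In C1q low cells, 0 members passed between DEP and PBS exposed mice with DESeq2 (4 at an unadjusted p under 0.05), all cells, the rules of 2 other-class or 2 dendritic cell markers, thinning and either other set of limits, 4 passed without a filter and without immunoglobulin markers, and leaving out 1 mouse gave 0 (without DEP 14 or PBS 3) to 4 (without DEP 15 or PBS 2). With limits of 0.4% and 1.2%, 1 member in place of 6 passed between intermediate and C1q high cells and 1 in the interaction (H2-Eb1, adjusted p = 0.0211). Over all genes the calls ran from 361 to 1049 for C1q high against low (873 as reported), from 132 to 434 for intermediate against low (319) and from 69 to 267 for high against intermediate cells (180). Between DEP and PBS exposed mice they ran from 0 to 78 over all cells (9), 0 to 30 in C1q low (8), 0 to 18 in intermediate (9) and 0 to 24 in C1q high cells (2), and from 0 to 18 for the interaction (9).

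Of 776 member values under alternatives, 62 changed sign, 46 of them uncalled and by less than the standard error. The log2 fold changes of DEP over PBS that turned further were, over all cells, those with equal cell numbers per class (H2-Aa 0.08, H2-Ab1 0.15, H2-Eb1 0.06, H2-DMb1 0.10, Cd74 0.16), with all cells (Cd74 0.02), without immunoglobulin markers (H2-Ab1 0.00, Cd74 0.05), with 2 markers (Ciita -0.44) and with thinning (Ciita -0.31). Others were H2-DMb1 in thinned C1q low cells (-0.09), H2-Eb1 in intermediate cells without DEP 14 (0.10, with -0.48 as the lowest value without 1 mouse), Ciita in C1q high cells with 2 markers (-0.83), Ciita between intermediate and C1q low cells with limits of 0.2% and 0.8% (-0.11) and, after thinning, between C1q high and intermediate cells (-0.11), and the interaction of H2-DMb1 after thinning (0.19). None of these passed. The share of C1q high cells without an H2-Ab1 UMI differed by 0 points without thinning, and by -1.20 to 0.413 points when a mouse was left out (0.02 without DEP 14). The cause of these changes was not tested. No paired analysis was possible because DEP and PBS exposed mice share no replicate number. The mouse was a block in the comparisons of C1q classes.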
